A study of Homo sapiens with 12 samples.

Results

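GCLM, GCLC, GSR, TXN, TXNRD1, PRDX1, SRXN1, NQO1 and PGD are 9 human genes of glutathione synthesis, glutathione and thioredoxin reduction, peroxide removal and NADPH supply. They were followed on bead arrays of HEK293 cells, a human embryonic kidney line, treated with dexamethasone alone or together with 15d-PGJ2. The cells are a pair of lines, named by the glucocorticoid receptor they carry: wtGR is the wild-type form, and GR3KR is a form defective in SUMOylation. The 9 genes are 9 of the 20043 genes with a symbol on the array and are read by all probes annotated to them, 16 of 47312. Of these, 14 were among the 20909 probes that were above detection (detection p under 0.01) on at least 3 of the 12 arrays. The 2 others, GCLC ILMN_2215194 and NQO1 ILMN_2354953, were above detection on 0 arrays, with log2 intensities of 4.36 to 4.86 and 4.43 to 4.63, and are not described further.

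These genes are known targets of NRF2 (gene NFE2L2), a transcription factor that the adaptor KEAP1 holds in the cytoplasm and delivers to a ubiquitin ligase. Electrophiles and oxidants modify cysteines of KEAP1. NRF2 then accumulates, pairs with small MAF proteins and binds the antioxidant response element. 15d-PGJ2 is a cyclopentenone prostaglandin with an electrophilic carbon that reacts with thiols, glutathione among them. Dexamethasone is a synthetic steroid that activates the glucocorticoid receptor.

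The core of the antioxidant response element, TGACNNNGC, was searched on both strands of the RefSeq promoters of the members. A promoter is here the window from 250 bases before to 50 bases after a gene's annotated start on GRCh38.p14. Entries used for 7 of the 9 genes gave 8 promoters, since TXNRD1 has 2 starts among them. The motif was found in 4 of these 8 promoters (1 of GCLM, 2 of TXNRD1 and 1 of PGD), and in 13.3% of all 35116 promoters. These 4 promoters are printed because they hold the motif. Capitals mark the motif, or its reverse complement where it lies on the opposite strand.
GCLM promoter chr1:93909381-93909680 (- strand): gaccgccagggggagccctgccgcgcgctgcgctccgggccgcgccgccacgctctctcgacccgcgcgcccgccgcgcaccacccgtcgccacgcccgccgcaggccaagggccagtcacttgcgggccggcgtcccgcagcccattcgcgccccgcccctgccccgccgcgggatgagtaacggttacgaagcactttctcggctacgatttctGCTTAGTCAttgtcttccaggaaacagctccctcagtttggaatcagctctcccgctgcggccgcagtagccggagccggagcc
TXNRD1 promoter chr12:104215529-104215828 (+ strand): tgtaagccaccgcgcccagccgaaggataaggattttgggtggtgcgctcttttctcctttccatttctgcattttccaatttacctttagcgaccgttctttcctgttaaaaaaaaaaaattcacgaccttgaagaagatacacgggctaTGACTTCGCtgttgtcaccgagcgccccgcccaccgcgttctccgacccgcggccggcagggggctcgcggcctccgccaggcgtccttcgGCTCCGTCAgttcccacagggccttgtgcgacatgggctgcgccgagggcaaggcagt
TXNRD1 promoter chr12:104286782-104287081 (+ strand): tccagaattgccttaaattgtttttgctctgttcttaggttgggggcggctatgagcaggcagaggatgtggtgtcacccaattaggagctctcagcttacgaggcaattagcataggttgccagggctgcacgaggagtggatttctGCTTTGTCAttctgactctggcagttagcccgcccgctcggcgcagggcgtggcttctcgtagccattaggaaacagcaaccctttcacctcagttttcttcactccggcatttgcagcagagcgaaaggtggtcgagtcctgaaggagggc
PGD promoter chr1:10398814-10399113 (+ strand): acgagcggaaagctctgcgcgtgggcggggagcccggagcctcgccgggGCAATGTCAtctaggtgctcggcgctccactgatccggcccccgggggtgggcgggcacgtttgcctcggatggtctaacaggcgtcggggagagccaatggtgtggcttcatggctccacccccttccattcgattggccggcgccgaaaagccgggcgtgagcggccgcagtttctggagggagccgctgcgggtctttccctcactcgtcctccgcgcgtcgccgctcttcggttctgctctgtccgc

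In GCLM the motif lay on the opposite strand, from -34 to -26, counted from the first transcribed base as 1 with no base 0. The upstream TXNRD1 promoter held it from -99 to -91 on the printed strand and from -8 to 1 on the opposite strand, and the other TXNRD1 promoter from -102 to -94. PGD had its match from -201 to -193. The core of the AP-1 site, TGANTCA, was found in 0 of the 8 promoters and in 7.71% of all, so it overlaps none of these matches. The windows of GCLC, TXN, SRXN1 and NQO1 do not hold the 9 letters of the motif. Promoters of GSR and PRDX1 were left out of the 8 counted for the members, so the count of member promoters with the motif does not cover these genes. How they would change that count was not tested. The share of member promoters with the motif is therefore not a full comparison of the members with all promoters. A match is a run of letters and was not tested as a binding site.

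All 12 arrays carry RNA of isogenic HEK293 lines under hygromycin selection, kept in steroid-depleted medium and then given 100 nM dexamethasone for 6 h. The receptor of each line is stably expressed, with 1 line for each form, so the receptor form and the line cannot be told apart. In each line 3 arrays had dexamethasone alone and 3 had dexamethasone with 5 µM 15d-PGJ2, which gives the groups wtGR dexamethasone, wtGR 15d-PGJ2, GR3KR dexamethasone and GR3KR 15d-PGJ2. No array lacks dexamethasone. In bulk RNA fewer cells of a type and less RNA per cell cannot be told apart.

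The arrays differed in quality along the design. GR3KR 15d-PGJ2 arrays 1, 2 and 3 had 15223, 14207 and 17032 probes above detection, against 17959 to 19950 on the other 9. A probe disagreement index, the main axis along which the 2 brightest probes of the same gene part from each other over 3223 genes outside the members, was -0.619, -0.557 and -0.129 on these arrays and -0.115 on wtGR dexamethasone array 3. It lay between 0.0961 and 0.235 on the other 8 arrays. ACTB ILMN_1777296 showed the same arrays apart, reading 5.10, 4.86 and 5.91 (log2) in the GR3KR 15d-PGJ2 group, 5.85 on wtGR dexamethasone array 3 and 8.14 to 13.99 elsewhere. Differences between 15d-PGJ2 and dexamethasone in GR3KR cells, and called differences that use the GR3KR 15d-PGJ2 group, are therefore also given without its arrays 1 and 2. The receptor gene NR3C1 was above detection on 10 arrays by ILMN_2389347 (1 of 3 in the GR3KR 15d-PGJ2 group), with 5.42 to 6.28 over all arrays, and on 2 and 0 arrays by its other probes. Whether ILMN_2389347 covers the introduced receptor is not given in the sources used here. Of 8 HEK293 markers 7 were above detection on at least 3 arrays and PAX2 on 0. Of the markers of other cell types, COL1A1, CD14 and CD68 were above detection on all 12 arrays, while PTPRC, CD3E, COL1A2, POSTN, PECAM1, CDH5 and KDR were on 0.

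In wtGR cells 15d-PGJ2 moved 0 of the 14 measured member probes past the limma test (adjusted p under 0.05 over all 20909 probes), where 16 probes or 0.0765% of all were called (0.0574% higher and 0.0191% lower). At an unadjusted p under 0.05 the count was also 0 of 14, against 7.61% of all probes. The members' log2 differences ran from -0.31 to 1.31 with a median of 0.07, beside a median of -0.03 over all probes. The groups did not overlap for 2 of the 14, 1 higher and 1 lower, against 18.5% of all probes. The same cells did respond at HMOX1, the haem-degrading NRF2 and BACH1 target. It read 7.05, 7.22 and 7.39 with dexamethasone and 9.83, 10.07 and 10.10 with 15d-PGJ2, a 6.86-fold rise (log2 difference 2.78, SE 0.18, limma adjusted p = 7.02e-05). HSPA1A, an inducible heat shock chaperone, was at least 5.62-fold higher with 15d-PGJ2 in wtGR cells, where it was not above detection with dexamethasone alone. The name NRF2-driven is thus background knowledge about these 9 genes, and no member probe shows it by this test in wtGR cells.

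In GR3KR cells 3 of the 14 member probes were called, where 44.8% of all probes were (27.2% higher and 17.6% lower). GCLM ILMN_2225974 and NQO1 ILMN_1720282 rose and PGD ILMN_1794165 fell. The members' median log2 difference was 0.21 and that of all probes 0.18, so the share of members called is below the background and their median is near it. The groups did not overlap for 4 of the 14 (3 higher and 1 lower), against 54.3% of all probes. Without GR3KR 15d-PGJ2 arrays 1 and 2, 0 of 14 member probes were called and 10 of 20909 in all, and GR3KR 15d-PGJ2 array 3 then stands alone, with its spread taken from the other groups. Without array 3 in place of these, 5 of 14 were called, where 61.4% of all probes were. The additional ones were SRXN1 ILMN_1804822 and PRDX1 ILMN_2366391, both lower.

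**Figure D1:**
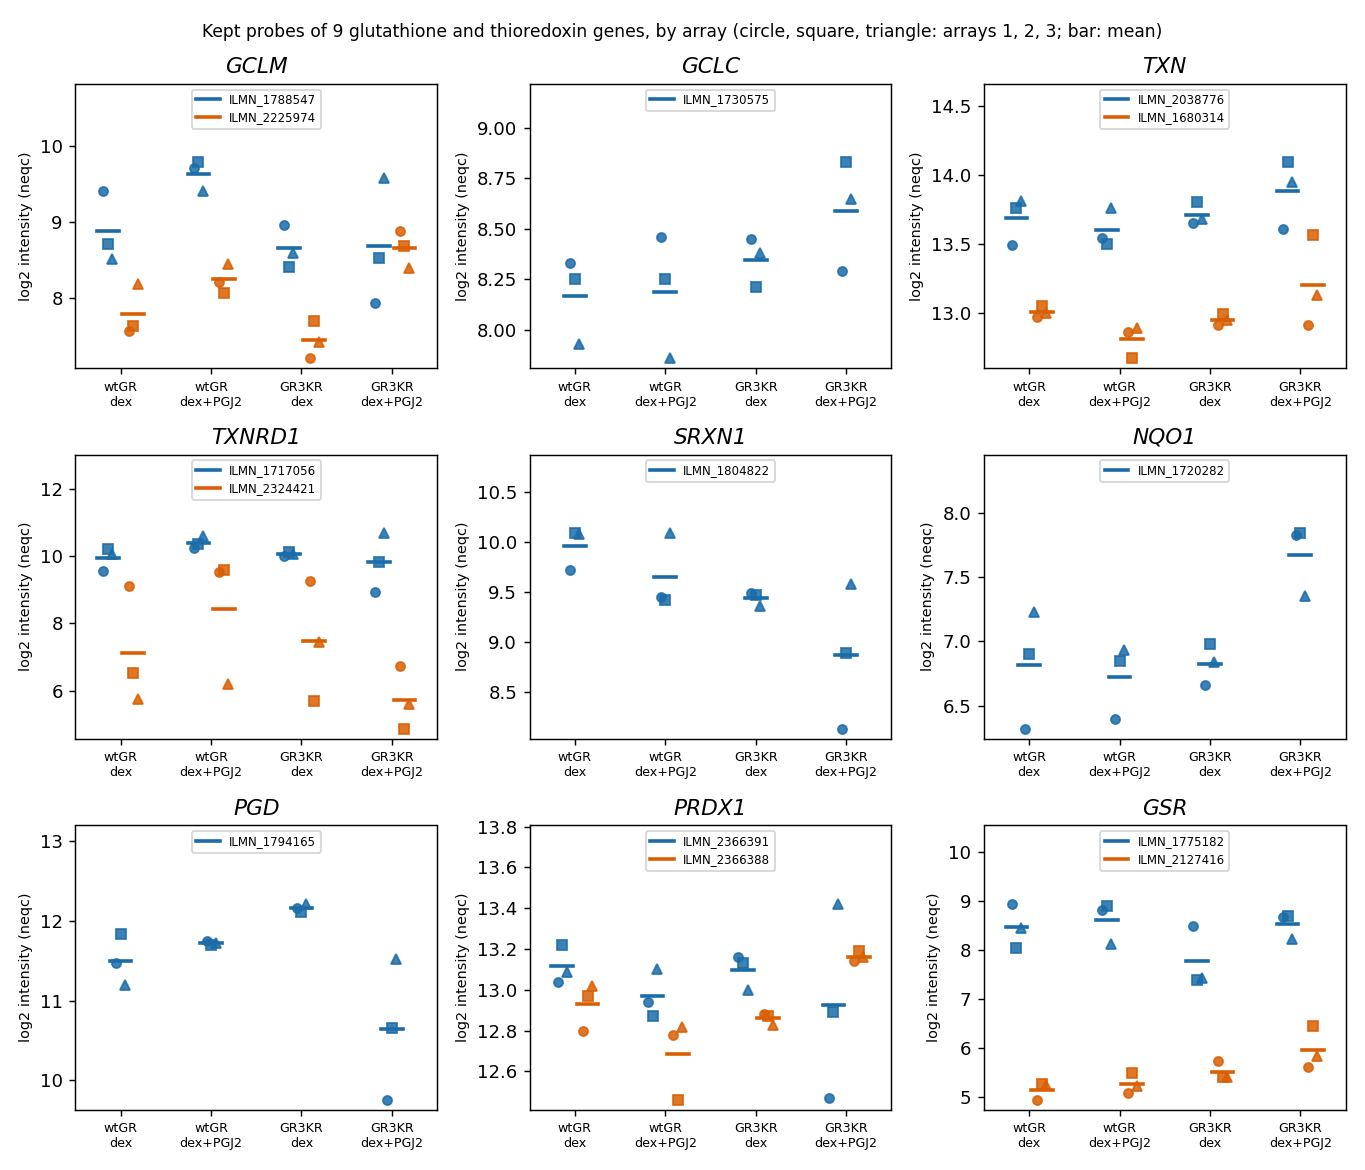
Log2 intensity after neqc normalization (vertical axis, scaled to each panel) of the 14 measured member probes in the 4 groups (horizontal axis). Symbols are single arrays, bars are group means and colours are probes of the same gene; PGD in the GR3KR 15d-PGJ2 group spreads from 9.75 to 11.52, below all 3 GR3KR dexamethasone arrays.

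Glutathione is made in a pair of steps, the first of which is limited by glutamate-cysteine ligase. GCLC is its catalytic subunit and GCLM its modifier subunit, which lowers the feedback inhibition by glutathione. GCLM ILMN_1788547 read 9.41, 8.71 and 8.51 on the wtGR dexamethasone arrays and 9.71, 9.78 and 9.40 on the wtGR 15d-PGJ2 arrays. The groups overlapped by a single pair, since dexamethasone array 1 was level with the lowest treated array. The log2 difference of 0.75 (SE 0.38, 95% interval -0.09 to 1.60) had a limma adjusted p of 0.7. The other probe, GCLM ILMN_2225974, read 7.56, 7.63 and 8.18 against 8.21, 8.07 and 8.45, again with array 3 of the controls reaching into the treated group. Its log2 difference was 0.46 (SE 0.22, adjusted p = 0.688). Both estimates were above 0 under every other setting in which they were computed, 23 for the first probe and 22 for the second, with ranges of 0.36 to 1.02 and 0.11 to 0.70. A wtGR estimate cannot change when only GR3KR arrays are left out, the probes fitted are changed, or the replicate block is added. Thus not all of these settings could move the estimates. Only 1 of these settings, which left out GR3KR 15d-PGJ2 arrays 1 and 2 and took the disagreement index as a covariate, gave a call, for ILMN_2225974 (0.70, adjusted p = 0.0314, where 2.05% of all probes were called).

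In GR3KR cells the 2 GCLM probes parted. ILMN_2225974 read 7.21, 7.70 and 7.42 with dexamethasone and 8.88, 8.68 and 8.39 with 15d-PGJ2. Every treated array was above every control array, as for 33.7% of all probes, and the rise of 2.31-fold was called (log2 difference 1.21, SE 0.22, limma adjusted p = 0.00679). ILMN_1788547 read 8.96, 8.41 and 8.59 against 7.94, 8.53 and 9.58, with a log2 difference of 0.03 (SE 0.38, adjusted p = 0.946). On array 3 of the treated group this probe was above all 3 controls, and on array 1 below them. Without arrays 1 and 2 both probes gave like values, 0.93 (adjusted p = 0.223) and 0.95 (adjusted p = 0.189), and neither was called. With the disagreement index as a covariate they parted the other way, 1.74 for ILMN_1788547 and 0.38 for ILMN_2225974, and with both changes they were 1.67 and 0.29, again not called. Under median scaling ILMN_2225974 was at 0.62 (adjusted p = 0.0881) while the median of all probes stood at -0.17. In the deposited intensities, which are not scaled between arrays, this probe read 200.7, 256 and 224 against 333.6, 198.9 and 297.5. Array 2 thus fell below all 3 controls there. The median intensity of all probes was also lower on the treated arrays, 63.01, 58.33 and 63.96 against 72.2, 70.7 and 71.03.

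GCLC ILMN_1730575 stayed within a narrow band of 7.86 to 8.83 over the 12 arrays. Its log2 difference was 0.02 (95% interval -0.44 to 0.49) in wtGR cells and 0.24 (-0.22 to 0.71) in GR3KR cells, with overlapping groups in both. Without GR3KR 15d-PGJ2 arrays 1 and 2 the latter was 0.30. GSR, which returns oxidized glutathione to its reduced form with NADPH, had 2 measured probes. GSR ILMN_1775182 read 8.93, 8.04 and 8.45 against 8.81, 8.89 and 8.11 in wtGR cells. In GR3KR cells it read 8.48, 7.38 and 7.43 against 8.67, 8.68 and 8.22. The treated arrays lay above 2 of the 3 controls there, and the log2 difference of 0.76 (SE 0.35) had an adjusted p of 0.0931. It was 0.46 (adjusted p = 0.598) when GR3KR 15d-PGJ2 arrays 1 and 2 were left out, and 1.12 (adjusted p = 0.0425) when GR3KR dexamethasone array 1 was left out. GSR ILMN_2127416 was dim, above detection on 5 of the 12 arrays, and its values of 4.93 to 6.44 lie near the limit of detection.

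Thioredoxin (TXN) reduces protein disulphides, and thioredoxin reductase 1 (TXNRD1), a selenoprotein, returns it to its reduced form. Both TXN probes were near flat. TXN ILMN_2038776 ran from 13.49 to 14.09 and TXN ILMN_1680314 from 12.67 to 13.56 over all arrays. With ILMN_1680314 the 3 wtGR 15d-PGJ2 arrays (12.86, 12.67 and 12.89) lay below the 3 controls (12.97 to 13.05), as for 11.9% of all probes, by a log2 difference of -0.20 (SE 0.18, adjusted p = 0.824). The corresponding difference in GR3KR cells was 0.25 (SE 0.18, adjusted p = 0.256), and neither passed the test. For ILMN_2038776 it was -0.08 in wtGR and 0.17 in GR3KR cells. With GR3KR 15d-PGJ2 arrays 1 and 2 left out the GR3KR values were 0.18 for ILMN_1680314 and 0.24 for ILMN_2038776.

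TXNRD1 ILMN_1717056 read 9.56, 10.21 and 10.08 on the wtGR dexamethasone arrays and 10.25, 10.38 and 10.61 on the wtGR 15d-PGJ2 arrays. All treated arrays were above all controls, as for 6.66% of all probes. The log2 difference of 0.47 (SE 0.36, 95% interval -0.33 to 1.26) did not pass the test (adjusted p = 0.803), and its estimates ran from 0.03 under median scaling to 0.60 over 23 other settings. In GR3KR cells this probe read 10.01, 10.13 and 10.08 with dexamethasone and 8.95, 9.83 and 10.69 with 15d-PGJ2. Array 3 of the treated group was the highest of the 12 and array 1 the lowest. The log2 difference was -0.26 (adjusted p = 0.568) with all arrays and 0.61 (adjusted p = 0.254) without arrays 1 and 2.

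The other TXNRD1 probe, ILMN_2324421, differed more between arrays of the same group than between groups. It read 9.11, 9.54, 9.59 and 9.27 on wtGR dexamethasone array 1, wtGR 15d-PGJ2 arrays 1 and 2 and GR3KR dexamethasone array 1. On the remaining 8 arrays it read 4.85 to 7.46. The first 4 are the arrays with the highest disagreement index, 0.214 to 0.235. The gap between the 2 TXNRD1 probes accordingly ran from 0.44 to 5.09 log2 units over the 12 arrays, a span of 4.65. That span was 2.80 for the 2 probes of GCLM, 2.02 for GSR, 1.08 for PRDX1 and 0.35 for TXN. With all arrays no difference between groups passed for ILMN_2324421, whose standard error was 1.18. With 15d-PGJ2 in both lines it was called lower in GR3KR cells under the replicate block (-2.71, adjusted p = 0.0243) and without wtGR 15d-PGJ2 array 3 (-3.84, adjusted p = 0.0201). It was above detection on 1 of the 3 GR3KR 15d-PGJ2 arrays. Which transcripts each probe reads is not given in the sources used here.

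**Figure D2:**
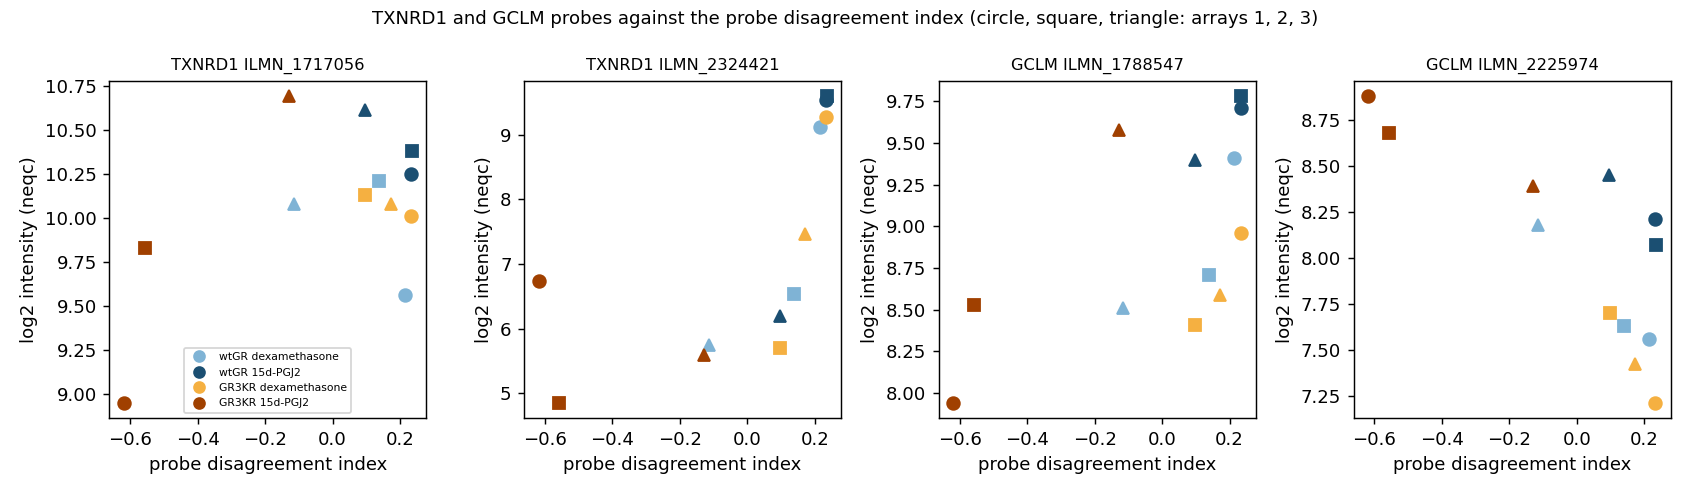
Log2 intensity of the 2 TXNRD1 and the 2 GCLM probes (vertical axes) against the probe disagreement index of each array (horizontal axes, no unit). Each symbol is 1 of the 12 arrays, coloured by group; TXNRD1 ILMN_2324421 is above 9 only on the 4 arrays with the highest index, and the GR3KR 15d-PGJ2 arrays 1 and 2 lie at the far left.

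Peroxiredoxin 1 (PRDX1) removes hydrogen peroxide with electrons from thioredoxin, and sulfiredoxin (SRXN1) repairs peroxiredoxins that have been overoxidized. PRDX1 ILMN_2366391 ran from 12.47 to 13.42 and PRDX1 ILMN_2366388 from 12.46 to 13.19 over the 12 arrays. In wtGR cells their log2 differences were -0.15 (SE 0.22) and -0.24 (SE 0.15), and in GR3KR cells -0.17 (SE 0.22) and 0.30 (SE 0.15), none past the test. For ILMN_2366388 the 3 GR3KR 15d-PGJ2 arrays (13.14, 13.19 and 13.16) lay above the 3 controls (12.88, 12.87 and 12.83), with an adjusted p of 0.115. Without GR3KR 15d-PGJ2 arrays 1 and 2 the GR3KR difference of ILMN_2366391 turned to 0.32 (adjusted p = 0.311), and that of ILMN_2366388 was 0.30 (adjusted p = 0.377). SRXN1 ILMN_1804822 read 9.72, 10.09 and 10.08 on the wtGR dexamethasone arrays and 9.45, 9.42 and 10.09 on the wtGR 15d-PGJ2 arrays. Treated arrays 1 and 2 were below all controls and array 3 was level with the highest, so the log2 difference was -0.31 (95% interval -1.03 to 0.41, adjusted p = 0.847). The estimate was below 0 under all of the 23 other settings. Those that change only the GR3KR arrays used, the probes fitted or the replicate block cannot move it. In GR3KR cells SRXN1 read 9.49, 9.47 and 9.36 against 8.13, 8.89 and 9.58, and the log2 difference of -0.57 (adjusted p = 0.162) turned to 0.14 (adjusted p = 0.775) without arrays 1 and 2. It was -0.93 (adjusted p = 0.0133) without array 3.

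NQO1, the quinone reductase often used as a readout of NRF2, did not differ by the test in wtGR cells. NQO1 ILMN_1720282 read 6.32, 6.90 and 7.23 against 6.40, 6.85 and 6.93 there, in fully mixed groups (log2 difference -0.09, 95% interval -0.65 to 0.47). In GR3KR cells it read 6.66, 6.98 and 6.84 with dexamethasone and 7.83, 7.84 and 7.35 with 15d-PGJ2. The groups did not overlap, and the 1.8-fold rise was called (log2 difference 0.85, SE 0.26, limma adjusted p = 0.0231). Without arrays 1 and 2 it was 0.52 (adjusted p = 0.393). Under median scaling it was 0.06 (adjusted p = 0.859) with the median of all probes at -0.17. Under cyclic loess it was 0.46 (adjusted p = 0.0883), and with the disagreement index as a covariate it turned to -0.07. The call was also lost without any 1 of GR3KR dexamethasone arrays 1 and 3 and GR3KR 15d-PGJ2 arrays 1 and 2, with differences of 0.76 to 0.85 (adjusted p = 0.0613 to 0.0803). The unscaled deposited intensities were 153.7, 168.4 and 163.4 against 151.7, 118.6 and 155.1, with all but 1 treated array below every control. These treated arrays also had lower median intensities over all probes.

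PGD, 6-phosphogluconate dehydrogenase of the oxidative pentose phosphate pathway, yields NADPH. PGD ILMN_1794165 read 11.47, 11.84 and 11.19 on the wtGR dexamethasone arrays and 11.75, 11.70 and 11.72 on the wtGR 15d-PGJ2 arrays, which all lay within the range of the controls. The log2 difference was 0.22 (95% interval -0.57 to 1.01, adjusted p = 0.913). In GR3KR cells it read 12.16, 12.11 and 12.21 with dexamethasone and 9.75, 10.66 and 11.52 with 15d-PGJ2, so every treated array was below every control, as for 20.6% of all probes. The 2.86-fold fall was called (log2 difference -1.51, SE 0.36, limma adjusted p = 0.011). Unscaled, the deposited intensities fell likewise, from 3976, 4429 and 4676 to 692.3, 893.1 and 2574, on treated arrays whose median intensities over all probes were also lower. The 2 lowest arrays are arrays 1 and 2, and without them the log2 difference was -0.64 (adjusted p = 0.215). With the disagreement index as a covariate it was -0.14 (adjusted p = 0.999). The part of array quality in the 3 calls was not tested beyond these fits.

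**Figure D3:**
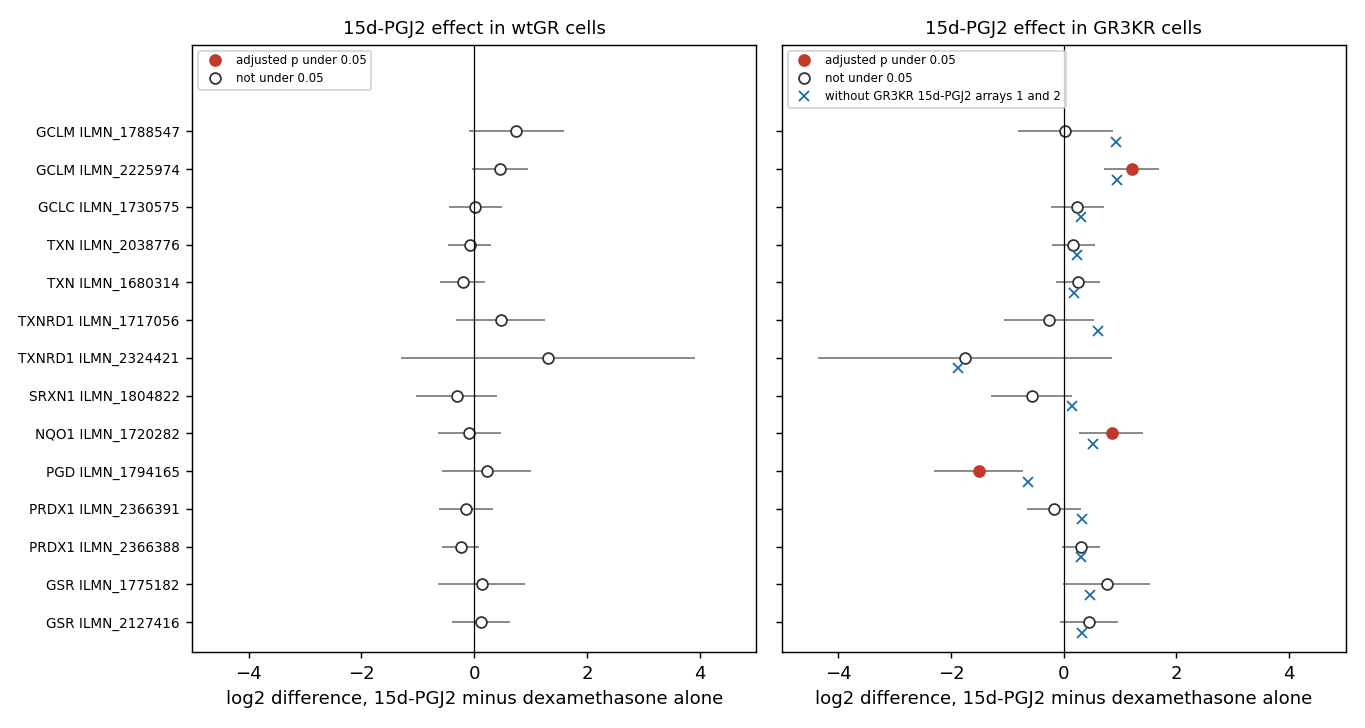
Log2 difference between 15d-PGJ2 with dexamethasone and dexamethasone alone (horizontal axis) for the 14 member probes (rows) in wtGR and GR3KR cells. Circles are limma estimates with 95% intervals, filled where the adjusted p is under 0.05, and crosses are estimates without GR3KR 15d-PGJ2 arrays 1 and 2; the left panel has no filled circle and the right panel has 3.

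The difference of the 15d-PGJ2 effects (GR3KR minus wtGR) was called for 1 of the 14 member probes, PGD, against 23.7% of all probes (14.6% higher and 9.03% lower). It was -1.73 for PGD (SE 0.50, 95% interval -2.85 to -0.62, adjusted p = 0.0368). The call was lost without arrays 1 and 2 of the GR3KR 15d-PGJ2 group (-0.86, adjusted p = 0.157). It was also lost without any single one of wtGR dexamethasone array 3, wtGR 15d-PGJ2 arrays 1 and 2, the 3 GR3KR dexamethasone arrays and GR3KR 15d-PGJ2 arrays 1 and 2, with differences of -1.76 to -1.29. Leaving out wtGR dexamethasone array 1 gave 2 calls, where 30.7% of all probes were called. Leaving out GR3KR 15d-PGJ2 array 3 gave 5, where 51.8% of all probes were. The 5 included both GCLM probes with opposite signs (-1.17 and 0.88). For GCLM with all arrays the differences were -0.72 (95% interval -1.91 to 0.47) and 0.75 (0.05 to 1.45), for TXNRD1 ILMN_1717056 -0.72 (-1.85 to 0.40) and for NQO1 0.94 (0.14 to 1.73), none of which passed (adjusted p = 0.0753 to 0.306). HMOX1 had a called difference of -1.20 (SE 0.26, adjusted p = 0.0209), which was -1.14 (adjusted p = 0.107) when GR3KR 15d-PGJ2 arrays 1 and 2 were left out.

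Between the lines under dexamethasone alone 0 of 14 member probes were called, against 4.62% of all probes (1.54% higher and 3.08% lower), and 0 of 14 had an unadjusted p under 0.05, against 18.1%. PGD was the member with the highest estimate, at 0.66 (SE 0.36, adjusted p = 0.38), and its 3 GR3KR arrays lay above its 3 wtGR arrays, as for 13.5% of all probes. Fitted without GR3KR 15d-PGJ2 arrays 1 and 2, which only enter the estimate of spread here, the same difference was called (adjusted p = 0.0366, where 11.9% of all probes were). SRXN1 was on the other side, with GR3KR arrays of 9.36 to 9.49 below wtGR arrays of 9.72 to 10.09 and a log2 difference of -0.52 (SE 0.32, adjusted p = 0.457). Groups that lay apart in this direction were found for 17.8% of all probes. With the dim probe GSR ILMN_2127416, 3 of the 14 member probes had groups that did not overlap, against 31.4% of all.

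With 15d-PGJ2 in both lines 4 of 14 member probes were called, against 50.7% of all (29.6% higher and 21.1% lower). The groups did not overlap for 5 of 14, against 55% of all probes. NQO1 was higher in GR3KR cells by 0.95 (SE 0.26, adjusted p = 0.0118) and PRDX1 ILMN_2366388 by 0.48 (SE 0.15, adjusted p = 0.0229). GSR ILMN_2127416 was also called higher (adjusted p = 0.0281), but it was above detection on 1 of 3 wtGR and 2 of 3 GR3KR arrays. With the wtGR values raised to at least the limit of detection the fold was 1.52. This is no lower bound, since 1 of the 3 GR3KR arrays was itself not above detection. PGD was lower by a log2 difference of -1.08 (SE 0.36, adjusted p = 0.0282). Under median scaling 5 were called (38.4% of all probes) and under cyclic loess 3 (42.4%), in part other probes. NQO1 (0.11 and 0.53) and GSR ILMN_2127416 (0.11 and 0.30) lost their calls under both, and PRDX1 ILMN_2366388 (0.31) under cyclic loess. PGD kept its call under both. GCLM ILMN_1788547 and SRXN1 were called lower under both, and TXN ILMN_1680314 higher under median scaling. With arrays 1 and 2 of the GR3KR 15d-PGJ2 group left out the count was 0 of 14 (12.8% of all probes), with values of 0.62 for NQO1, 0.47 for PRDX1 ILMN_2366388 and -0.20 for PGD, and an adjusted p of 0.13 for GSR ILMN_2127416. The count was 1 without wtGR 15d-PGJ2 array 1 (36% of all probes called) or GR3KR 15d-PGJ2 array 2 (36.7%). It was 2 without wtGR 15d-PGJ2 array 2 (35.9%) and 7 without GR3KR 15d-PGJ2 array 3 (62.5%). PGD thus had its highest mean in GR3KR cells with dexamethasone (12.16 ± 0.05, SD, n = 3), followed by wtGR cells with 15d-PGJ2 (11.72 ± 0.02) and without it (11.50 ± 0.33). Its lowest was in GR3KR cells with 15d-PGJ2 (10.65 ± 0.89). Among the first 3, neither the 2 wtGR groups nor the 2 dexamethasone groups differed by the test.

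Other genes of the pathway were read by their brightest measured probe. Of 32 other NRF2 targets 19 were measured, and in wtGR cells 1 was called, HMOX1. SQSTM1, an autophagy receptor that binds KEAP1, was singled out after its value was seen, at 1.16 (SE 0.18, adjusted p = 0.0598). In GR3KR cells 8 of the 19 rose and 3 fell, where 27.2% of all probes were called higher and 17.6% lower. HMOX1 rose by 1.58 and BLVRB, the NADPH-dependent biliverdin reductase B, by 1.40. The ferritin light chain FTL fell by 4.28 and EPHX1, microsomal epoxide hydrolase, fell by 1.40. Without arrays 1 and 2 of the GR3KR 15d-PGJ2 group 0 of the 19 were called in GR3KR cells, with 1.64 for HMOX1, 1.03 for BLVRB, -1.74 for FTL and -0.91 for EPHX1.

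Of 9 genes that act with or on NRF2, 6 were measured and 0 were called in wtGR cells. NFE2L2, added as the gene of NRF2 itself, was at 0.17 (SE 0.67). RBX1, a subunit of the ubiquitin ligase that KEAP1 works with, was at -0.48 and the partner protein MAFG at 1.40, the smallest p-values of the list (unadjusted p = 0.0335 and 0.0428). In GR3KR cells 3 of the 6 were called, near the 44.8% of all probes: RBX1 rose by 0.54, and KEAP1 and MAFG fell by 2.37 and 2.04. Their values without arrays 1 and 2 were 0.41, -1.02 and -0.16, with 0 of 6 called.

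Among 24 measured genes of 28 other glutathione, thioredoxin and peroxide enzymes 0 were called in wtGR cells, where the smallest p-values belonged to the stress-induced sestrin SESN1 (-0.83, adjusted p = 0.141) and to GLRX (-0.31). In GR3KR cells 4 rose and 7 fell, a share of the 24 near the 44.8% of all probes called. The largest called changes were falls, of the mitochondrial peroxiredoxin PRDX3 by 2.81, the glutaredoxin GLRX3 by 2.73, the glutathione peroxidase GPX4 by 2.27 and catalase (CAT) by 1.69. Without arrays 1 and 2 these were -0.45, -0.48, -0.50 and -0.39 and 0 of 24 were called. Of 8 NADPH-producing or pentose phosphate genes other than PGD, 7 were measured, with 0 called in wtGR cells, where IDH1, which yields cytosolic NADPH, was at -1.18 (adjusted p = 0.129) and RPIA at -0.33. Several of these genes, TKT among them, are also in the list of other NRF2 targets. Fitted without GR3KR 15d-PGJ2 arrays 1 and 2, which enter here only through the spread, the wtGR differences of SQSTM1, MAFG and IDH1 passed (adjusted p = 0.0394, 0.027 and 0.0185), where 0.387% of all probes did. In GR3KR cells with all arrays RPIA rose by 0.48 and TKT fell by 0.62, 2 of 7 against 44.8% of all probes. Without those 2 arrays they were 0.31 (adjusted p = 0.316) and -0.24 (adjusted p = 0.428), and 0 of 7 were called. The lists' medians in wtGR cells were -0.06, 0.08, -0.08 and -0.06, beside -0.03 for all probes. In GR3KR cells they were 0.66, -1.0, 0.01 and -0.19 beside 0.18. Without GR3KR 15d-PGJ2 arrays 1 and 2 the GR3KR medians were 0.47, 0.01, -0.03 and 0.31 beside 0.11. All but that of the other NRF2 targets thus changed sign, that of the glutathione, thioredoxin and peroxide enzymes only from 0.01 to -0.03.

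**Figure D4:**
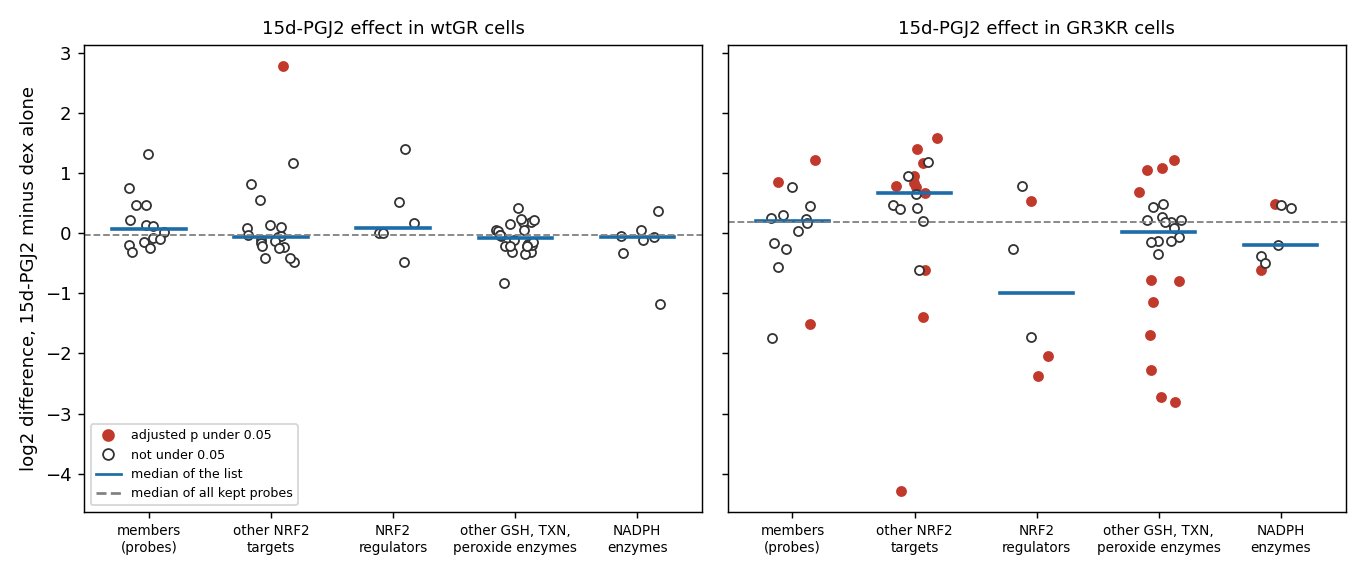
Log2 difference between 15d-PGJ2 with dexamethasone and dexamethasone alone (vertical axis) for the 14 member probes and for 4 lists of related genes (horizontal axis) in both lines. Points are single probes, filled where the adjusted p is under 0.05, blue bars are list medians and the dashed line is the median of all probes; in wtGR cells the single filled point is HMOX1.

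The genes whose pattern was most like that of 3 members were taken over the 9 arrays outside the GR3KR 15d-PGJ2 group, from 16339 probes, as a description. For GCLM ILMN_1788547 they were KDM6B (Pearson r = 0.984), CPSF2 (0.965) and LRRC8D (0.963). TXNRD1 ILMN_1717056 was nearest to MPDU1 (0.963), EPS15L1 (0.961) and PLIN2 (0.960), and SRXN1 to HS6ST3 (0.981), C19orf38 (0.962) and ZNF395 (0.957). No other member probe was among these 9 genes, and arrays share their quality as well as their treatment.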

How the data were processed

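Expression was measured on Illumina bead arrays in 12 RNA samples, 3 in each of 4 groups taken from the labels. The authors deposited a table of linear intensities, named as non-normalized, with a deposited detection p-value for each; background subtraction before deposit is not given in the sources used here. A further deposited table holds the authors' log2 values, an alternative here; the submitters' processing notes name lumi without version or steps. Probe symbols came from the platform annotation, which gives 1 symbol for 30107 of 47312 probes, and RefSeq changed 0 of them.

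Intensities were background corrected and normalized by neqc (limma 3.58.1, R 4.3.3; background inferred from detection p-values, quantile normalization, offset 16). Probes with detection p under 0.01 on at least 3 of 12 arrays were kept. A limma model of 4 group means was fitted to each of the 20909 kept probes, with 8 residual and 2.66 prior degrees of freedom, for 5 comparisons between groups or effects. Tests were 2-sided, with Benjamini-Hochberg adjustment over all kept probes and a threshold of 0.05. Errors beside log2 differences are standard errors, and intervals cover 95%. The fit was tested on simulated data. A listed gene was represented by its brightest kept probe; per list and effect up to 4 called genes, or up to 2 with the smallest p, could be named.

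Per the labels the arrays are triplicates, not stated to be separate cultures. The p-values therefore reflect the spread between these samples, which may be technical, and the number of arrays limits the precision. The members and lists were chosen with earlier results of these data known. The closing section gives 11 other settings and 12 fits that each leave out 1 array.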

Additional observations from a re-analysis of the deposited data

Results flagged for a closer look

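The 15d-PGJ2 effects on PGD ILMN_1794165 differed between the lines by a test of the difference itself. The log2 difference of the effects, GR3KR minus wtGR, was -1.73 (SE 0.50, limma adjusted p = 0.0368). PGD was at 0.22 in wtGR cells and at -1.51 in GR3KR cells, where the 3 treated arrays read 9.75, 10.66 and 11.52. The lowest of them are arrays 1 and 2, with disagreement indices of -0.619 and -0.557. Without both the difference was -0.86 (adjusted p = 0.157), and with the index as a covariate it was -0.11 (adjusted p = 0.998). Over the 23 other settings, of which changes to the probes fitted and the replicate block cannot move it, it stayed below 0 and was called in 8. Median scaling (-1.47, adjusted p = 0.085) and cyclic loess (-1.99, adjusted p = 0.0516) were not among these.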

How the results depend on the processing

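In wtGR cells the count of called member probes was 0 with all settings except the probe disagreement index as a covariate without GR3KR 15d-PGJ2 arrays 1 and 2, which gave 1. In GR3KR cells the 3 calls became 1 under median scaling and 0 without arrays 1 and 2, with the index, and with both. For the difference of the effects the 1 call became 2 under median scaling and with the authors' lumi table, and 0 under cyclic loess, with no filter on dim probes, without arrays 1 and 2, with the index, with both, and with the replicate block. Between the lines under dexamethasone the 0 became 1 without arrays 1 and 2 and 1 with both. With 15d-PGJ2 the 4 calls became 2 with 1 probe per gene and 0 without arrays 1 and 2, with the index, and with both. Leaving out 1 array at a time gave 0 to 0, 2 to 5, 0 to 5, 0 to 0 and 1 to 7 calls in these 5 comparisons. The shares of all probes called ran from 0.0239% to 0.354%, 19.7% to 61.4%, 0.292% to 51.8%, 1.49% to 9.57% and 35.9% to 62.5%. Equal or higher counts can be of other probes. For the difference of the effects the 2 calls under median scaling were TXN ILMN_1680314 and PRDX1 ILMN_2366388. PGD was not called there (-1.47, limma adjusted p = 0.085). With 1 probe per gene the PRDX1 and GSR probes called with 15d-PGJ2 were not tested.

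With the index NQO1 turned to -0.07 in GR3KR cells, and to -0.17 when arrays 1 and 2 were also left out. Between the lines with 15d-PGJ2 PGD turned to 0.35 with the index and to 0.12 with both, and NQO1 to -0.12 with both. Median scaling shifted the median of all probes by -0.27 in wtGR cells and -0.35 in GR3KR cells, and cyclic loess by 0.06 and -0.18. Over all 20909 probes the calls in GR3KR cells were 5279 under median scaling and 0 with the index, against 9371, and in wtGR cells 81 without arrays 1 and 2 and 92 with the index, against 16. The causes were not tested. The index also separates the GR3KR 15d-PGJ2 group from its controls, so as a covariate it can take out a response with it.

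The replicate block changed no other count of calls by over 1.5 times, with 0, 3, 0, 0 and 6 calls in the 5 comparisons. Same-numbered arrays correlated at -0.170 to 0.749 in their deviations, so the numbers were not taken as pairs. Array weights could not be fitted: the estimate did not converge, with weights of 0.0735 to 46.2, and this alternative was not run further. Dim probes limit GSR ILMN_2127416, TXNRD1 ILMN_2324421 and the 2 undetected probes.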
